A study of Mus musculus with 4 samples.

Results

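The Ugt2 and Ugt3 genes encode UDP-glycosyltransferases, and 10 of them were followed in the livers of propionic acidemia (PA) and wild-type (WT) mice. They are Ugt2a3, Ugt2b1, Ugt2b5, Ugt2b34, Ugt2b35, Ugt2b36, Ugt2b37, Ugt2b38, Ugt3a1 and Ugt3a2, named by symbol among the 55487 gene identifiers of the count tables. Ugt2b38 and Ugt3a1 were singled out because of how their counts differed between PA and WT, and the others because they are their paralogs. The values of all 10 in that comparison are therefore a description, without a test of their own. All 10 passed the filter on low counts, Ugt2b38 through its WT libraries alone, since its PA libraries held 4 and 9 counts.

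UDP-glycosyltransferases are enzymes of the endoplasmic reticulum membrane that attach a sugar to small fat-soluble molecules, which can then leave the cell in bile or blood. Ugt2 enzymes use UDP-glucuronic acid, and in the liver they act on steroid hormones, bile acids and drugs. Ugt3 enzymes use other sugars, with UDP-N-acetylglucosamine described for human UGT3A1 and UDP-glucose and UDP-xylose for human UGT3A2.

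Polyadenylated RNA was sequenced from frozen liver of 4 female mice, 2 PA and 2 WT, on the FVB strain background. The animals were 11 weeks old and were kept on standard chow under a 12/12 h light cycle. PA mice are labelled hypomorphic Pcca-/- (A138T), and WT mice carry no listed allele. Pcca encodes the alpha subunit of the carboxylase that converts propionyl-CoA in mitochondria, and A138T is an amino acid change in it. The labels used here do not say what drives the hypomorphic copy. The series is about histone H4 acylation and metabolic perturbation, and its design text calls the 2 libraries per genotype biological replicates.

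Gene counts came to 25990553 and 30110400 in PA livers and to 29627033 and 25575016 in WT livers. At these depths 3 counts equal 0.0978 to 0.118 CPM, the unit of counts scaled to a common library size, here after TMM scaling. Mouse Pcca was at 34.2 and 47.4 CPM in PA livers, against 60.3 and 58.9 CPM in WT livers. That is a log2 fold change of -0.55 with a standard error (SE) of 0.22 and an adjusted p of 0.398 in edgeR, and which part of the gene is missing is not stated, so it does not check the allele. Among the markers of hepatocytes, 7 of 8 matched a symbol, and their summed level was 148762 and 179998 CPM in PA livers, against 162346 and 179256 CPM in WT livers. The groups overlapped in this sum, most of which came from 1 gene. Of the 7 markers, 0 were called by edgeR, 1 was higher and 1 lower at an unadjusted p under 0.05, and 1 was called higher by DESeq2. Kupffer cell markers summed to 243 and 356 CPM in PA livers, against 556 and 494 CPM in WT livers. Of these 8 markers, 0 were called by edgeR, 3 were lower at an unadjusted p under 0.05 and 2 were called lower by DESeq2. Their estimates were negative for 7 and positive for 1. Red blood cell markers summed to 11.9 and 16.8 CPM in PA livers, against 88.5 and 47.5 CPM in WT livers. Of 5 tested, 2 were called lower by edgeR, where 0.548% of all genes tested were. B and T cell markers summed to 3.77 and 6.46 CPM in PA livers, against 15.9 and 13.2 CPM in WT livers, with 0 of 6 tested called by edgeR, 2 lower at an unadjusted p under 0.05 and 1 called lower by DESeq2. Endothelial markers summed to 191 and 201 CPM in PA livers, against 243 and 221 CPM in WT livers. Of these 8 markers, 0 were called by edgeR or DESeq2, and 3 had positive and 5 negative estimates, with a median of -0.05. Clec4g alone reached an unadjusted p under 0.05 in edgeR. It was at 77.3 and 69.4 CPM in PA livers, against 115 and 104 CPM in WT livers. Cholangiocyte markers summed to 30.1 and 32.9 CPM in PA livers, against 34.4 and 48.6 CPM in WT livers. Of 5 tested, 0 were called by edgeR or DESeq2, and 2 were higher and 1 lower at an unadjusted p under 0.05. Stellate and fibroblast markers summed to 471 and 432 CPM in PA livers, against 458 and 434 CPM in WT livers. Of these 8, 0 were called by edgeR or DESeq2, and 1 was lower at that level. Mitochondrially encoded genes held 13.6 and 8.98% of counts in PA livers, against 6.90 and 7.38% in WT livers.

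The 8 Ugt2 genes lie in one run on chromosome 5, which spans 534.4 kb of GRCm38. Of these, 7 are read from the minus strand and Ugt2b35 from the plus strand. Each Ugt2 coding sequence is spread over 6 exons. Ugt3a1 and Ugt3a2 lie side by side on the plus strand of chromosome 15, within 94.1 kb, and have 7 exons each.

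**Figure D1:**
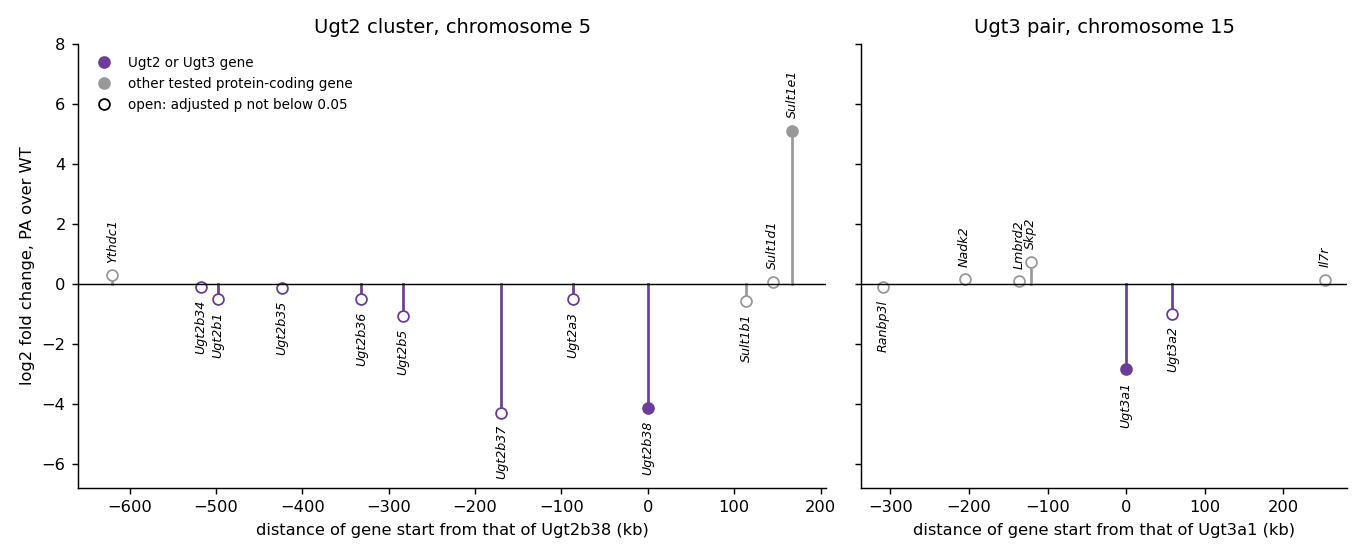
Log2 fold change (PA over WT) of the Ugt2 and Ugt3 genes (purple) and of other tested protein-coding neighbours (grey), placed by the distance in kb of each gene's start from that of Ugt2b38 (left) or Ugt3a1 (right), with filled points for an adjusted p below 0.05 in edgeR. Ugt2b37 and Ugt2b38 (-4.29 and -4.13) lie on either side of Ugt2a3 at -0.52, and Sult1e1 at 5.10 lies beyond Ugt2b38.

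Ugt2b38 (ENSMUSG00000061906, chromosome 5, 87409942 to 87424203, minus strand) is a Ugt2b enzyme known for higher expression in male than in female mouse liver. It is closest in coding sequence to Ugt2b5, with 97.05% of bases identical (47 differences), and differs from Ugt2b37 at 94 bases (94.1% identical). Because STAR counted only reads with a single best place, the counts of these genes rest on the bases that differ between them. The lines below show where such bases lie, in coding bases 1422 to 1511 in exon 6, taken from the GENCODE M21 transcripts of GRCm38 and read 5′ to 3′. Capitals mark, in Ugt2b38, bases that differ from either of the others and, in Ugt2b37 (11 differences) and Ugt2b5 (10 differences), bases that differ from Ugt2b38. The windows are chr5:87410290-87410379, chr5:87240842-87240931 and chr5:87125295-87125384, all minus strand.
Ugt2b38: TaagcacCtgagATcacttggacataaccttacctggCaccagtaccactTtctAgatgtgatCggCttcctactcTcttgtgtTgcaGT
Ugt2b37: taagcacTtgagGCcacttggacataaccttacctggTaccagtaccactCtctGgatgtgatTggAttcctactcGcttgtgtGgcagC
Ugt2b5: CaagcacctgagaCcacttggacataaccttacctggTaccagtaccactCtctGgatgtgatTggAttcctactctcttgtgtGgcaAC

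Of the 100-base windows along the transcript, 75.78% were unique to Ugt2b38 among all transcripts, as were 75.33% for Ugt2b5 and 98.94% for Ugt2b37. With 50-base windows the unique share was 62.6% for Ugt2b38, 58.26% for Ugt2b5 and 81.68% for Ugt2b37. By this measure alone, reads of Ugt2b38 and Ugt2b5 are harder to place than those of the other members. In the other 5 Ugt2 genes and the Ugt3 pair, 99.41 to 100% of the 100-base windows were unique.

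Ugt2b38 had 4 and 9 counts in PA livers, against 151 and 87 counts in WT livers. On the scale of sequencing depth this was 0.157 and 0.303 CPM in PA livers and 4.92 and 3.42 CPM in WT livers. Both PA livers were below both WT livers, and the PA mean was 5.51% of the WT mean. Ugt2b38 fell by 4.13 on the log2 scale (SE 0.44). RSEM, which shares out reads that fit several genes, listed Ugt2b38 at 0 and 7.22 expected counts in PA livers, against 148.53 and 86.07 in WT livers. From those expected counts the log2 fold change was -4.96, with 1 PA library listed at 0.

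Ugt3a1 (ENSMUSG00000072664, chromosome 15, 9276888 to 9315032, plus strand) shares its symbol with the N-acetylglucosamine-transferring human enzyme. Which sugar the mouse enzyme uses was not tested. Ugt3a1 had 428 and 505 counts in PA livers, against 3671 and 3159 counts in WT livers. In CPM these were 16.8 and 17.0 in PA livers and 119.7 and 124 in WT livers. The 2 livers of each genotype lay close together and the groups were far apart, with a PA mean at 13.9% of the WT mean. Ugt3a1 fell by 2.85 on the log2 scale (SE 0.20), and estimates from -2.90 to -2.81 came from the other counting and scaling choices tried. RSEM assigned Ugt3a1 more reads than STAR in WT livers, 1.49 times the STAR count, where the other 9 members were at 0.872 to 0.991 times.

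The Ugt3 pair is 93.26% identical in coding sequence, with 106 differing bases. Coding bases 209 to 298 in exon 3 are shown as a stretch where the pair can be told apart, with capitals for the 20 bases that differ. They lie at chr15:9291991-9292080 in Ugt3a1 and chr15:9351115-9351204 in Ugt3a2 (plus strand, GRCm38, GENCODE M21 transcripts).
Ugt3a1: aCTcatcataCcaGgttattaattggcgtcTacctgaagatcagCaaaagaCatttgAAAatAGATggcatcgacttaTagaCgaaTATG
Ugt3a2: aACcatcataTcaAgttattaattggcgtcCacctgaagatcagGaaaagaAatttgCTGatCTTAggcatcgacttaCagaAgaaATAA

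**Figure D2:**
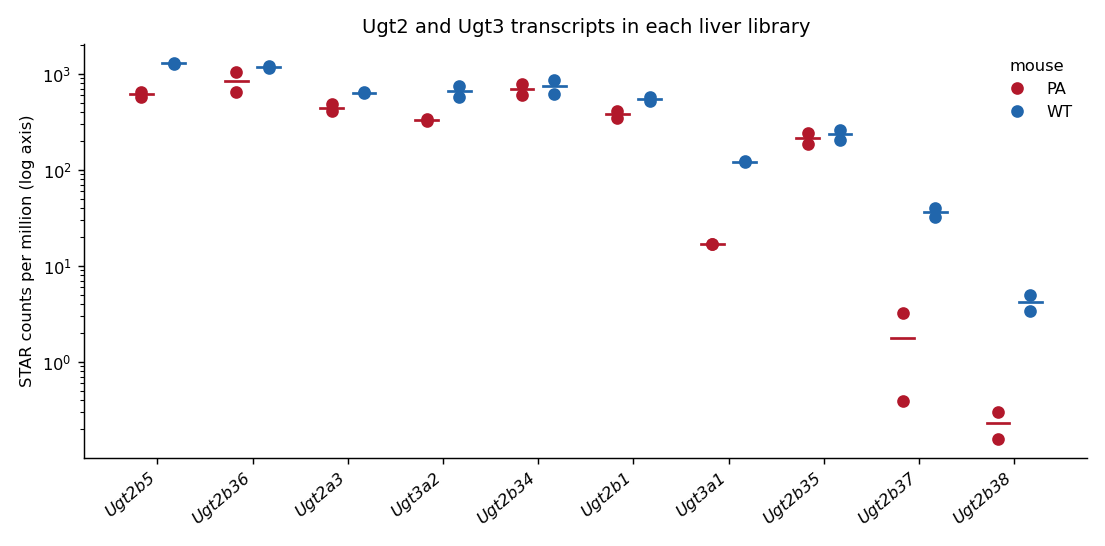
Level of each of the 10 genes in CPM (log axis) in each library, with PA points left of WT points, lines at the group means and genes ordered by their TPM in WT livers. For Ugt2b34 and Ugt2b35 the groups overlap, and for the other 8 genes both PA livers sit below both WT livers.

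Both Ugt2b38 and Ugt3a1 were called lower in PA livers, meaning an adjusted p under 0.05 in edgeR's quasi-likelihood fit over 14411 genes. They were the 2 of 10 members called, in a comparison where 0.812% of all genes were called, 0.548% lower and 0.264% higher. Since the members were chosen on this comparison, nothing is read from their share. The adjusted p (edgeR) was 0.0103 for Ugt2b38, the called member nearest the threshold, and 0.0552 for Ugt2b37, the nearest outside it. With DESeq2, 5 members were called lower, where 1.62% of all genes were. Not being called does not show that a gene was unchanged. In these whole-liver samples, fewer cells of a type and less RNA per cell cannot be told apart.

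Ugt2b37 (ENSMUSG00000057425, chromosome 5, 87240493 to 87254804, minus strand) had 10 and 95 counts in PA livers, against 983 and 1017 counts in WT livers. In CPM these were 0.393 and 3.20 in PA livers and 32.0 and 39.9 in WT livers. Both PA livers were far below the WT livers but differed strongly from each other. The PA mean was 4.99% of the WT mean, and the log2 fold change was -4.29 (SE 0.71). With PA replicate 1 left out the estimate was -3.49, with PA replicate 2 left out it was -6.50, and Ugt2b37 was called in 10 of 11 alternative fits, the exception being that on RSEM expected counts.

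Ugt2b5 (ENSMUSG00000054630, chromosome 5, 87124960 to 87140318, minus strand) is the closest paralog of Ugt2b38 in sequence and was far more abundant in TPM, as given below. It was at 649.5 and 577 CPM in PA livers, against 1272 and 1301 CPM in WT livers. The groups did not overlap, the PA mean was 47.7% of the WT mean, and the log2 fold change was -1.07 (SE 0.25). Ugt3a2 (ENSMUSG00000049152, chromosome 15, 9335550 to 9370955, plus strand), the partner of Ugt3a1, was at 319 and 341 CPM in PA livers and 576 and 744 CPM in WT livers. Its groups did not overlap either, with a log2 fold change of -1.0 (SE 0.25). Neither gene was called by edgeR, and both were called lower by DESeq2.

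Ratios within a library do not depend on how libraries are scaled. Per 100 Ugt2b5 counts, PA livers held 0.0242 and 0.0525 Ugt2b38 counts, against 0.387 and 0.263 in WT livers. Ugt2b38 was thus further below WT than its closest paralog in each PA liver, with a log2 difference of -3.16 between the genotypes in this ratio. Per 100 Ugt2b5 counts, Ugt2b37 stood at 0.0604 and 0.554 in PA livers, against 2.52 and 3.07 in WT livers. Per 100 Ugt2b37 counts, Ugt2b38 stood at 40 and 9.47 in PA livers, against 15.4 and 8.55 in WT livers. In this last ratio the groups overlapped in STAR counts, where the value of PA replicate 1 rests on 4 and 10 counts. With RSEM expected counts the ratio was 0 and 9.13 in PA livers, against 17.2 and 9.62 in WT livers, without overlap. There the PA values rest on 0 and 7.22 expected counts of Ugt2b38, beside 6.59 and 79.09 of Ugt2b37. With so few counts in PA livers, neither counting settles whether Ugt2b38 and Ugt2b37 differed in how far they were below WT. Ugt2b36 per 100 Ugt2b5 counts stood at 158.8 and 112 in PA livers, against 90.9 and 93.4 in WT livers, and was higher in both PA livers.

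Per 100 Ugt3a2 counts, PA livers held 5.27 and 4.98 Ugt3a1 counts, against 20.8 and 16.7 in WT livers. The Ugt3 genes thus differed in how far they were below WT, and the log2 difference in this ratio was -1.86 in STAR counts and -1.84 in RSEM expected counts. With RSEM the ratio per 100 was 9.11 and 8.69 in PA livers and 35.3 and 28.5 in WT livers, so the level of the ratio depended on the counting and the difference between genotypes hardly did.

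**Figure D3:**
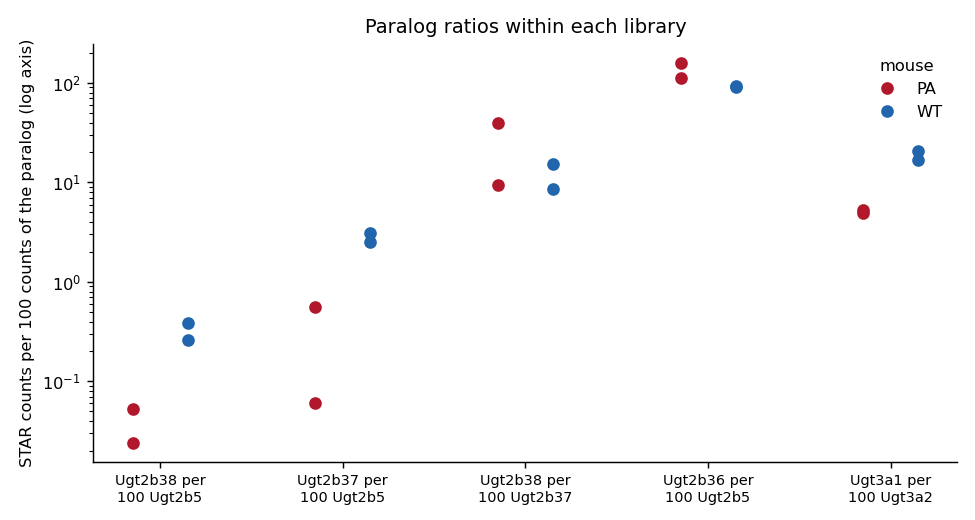
STAR counts of a gene per 100 counts of a paralog within each library (log axis), with PA points left of WT points. Ugt2b38 per Ugt2b5, Ugt2b37 per Ugt2b5 and Ugt3a1 per Ugt3a2 are lower in both PA livers than in both WT livers, Ugt2b36 per Ugt2b5 is higher in both PA livers, and Ugt2b38 per Ugt2b37 overlaps between the groups.

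Another 3 Ugt2 genes had PA values below WT without overlap but by less. Ugt2b36 (ENSMUSG00000070704, chromosome 5, 87065927 to 87092555, minus strand) was at 1031 and 649 CPM in PA livers, against 1156 and 1215 CPM in WT livers, a log2 fold change of -0.50 (SE 0.30). The PA livers differed from each other by more than PA replicate 1 differed from WT. Ugt2a3 (ENSMUSG00000035780, chromosome 5, 87324972 to 87337195, minus strand), whose human counterpart conjugates bile acids, was at 409 and 481 CPM in PA livers and 634 and 639 CPM in WT livers, a log2 fold change of -0.52 (SE 0.24). Ugt2b1 (ENSMUSG00000035836, chromosome 5, 86916638 to 86926530, minus strand), like Ugt2b38 known as higher in male mouse liver, was at 414 and 345 CPM in PA livers and 515 and 575 CPM in WT livers, a log2 fold change of -0.52 (SE 0.24). The PA means of these 3 genes were at 69.8 to 70.8% of WT, but the single PA livers did not share 1 ratio. PA replicate 1 was above PA replicate 2 for Ugt2b36 and Ugt2b1 and below it for Ugt2a3.

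Ugt2b34 (ENSMUSG00000029260, chromosome 5, 86889767 to 86906937, minus strand) was at 601 and 788 CPM in PA livers, against 611 and 869 CPM in WT livers. The groups overlapped, and the log2 fold change of -0.09 (SE 0.29) was within its error. Ugt2b35 (ENSMUSG00000035811, chromosome 5, 87000860 to 87013275, plus strand) was at 239 and 185 CPM in PA livers and 205 and 262 CPM in WT livers. Here too the groups overlapped, with a log2 fold change of -0.14 (SE 0.25). The sign of both estimates turned when single livers were left out.

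**Figure D4:**
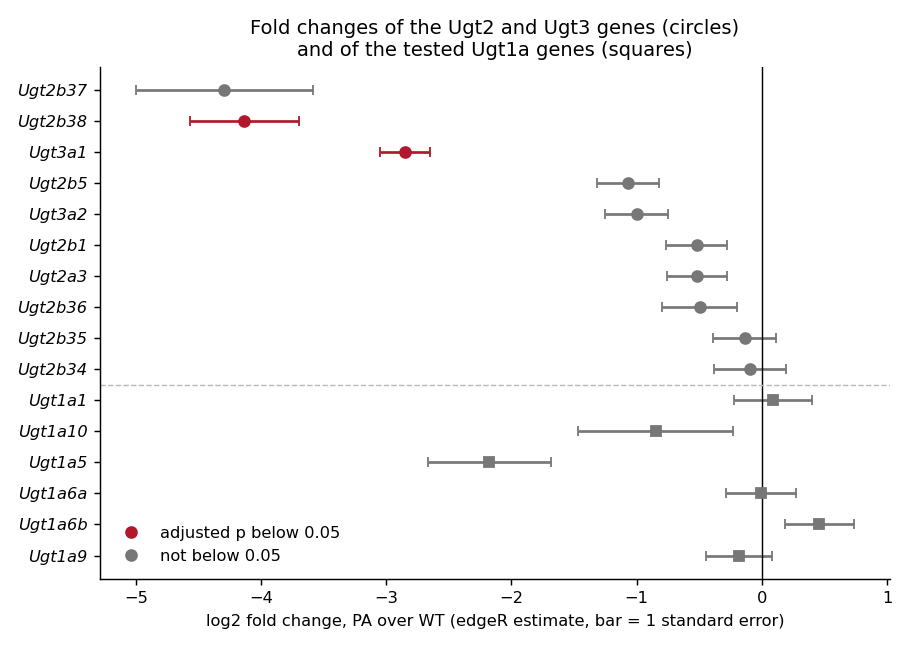
Log2 fold change (PA over WT) from edgeR of the 10 Ugt2 and Ugt3 genes (circles) and of the 6 tested Ugt1a genes (squares), with bars of 1 SE to each side and red for an adjusted p below 0.05. The 10 circles are all below 0, from -4.29 for Ugt2b37 to -0.093 for Ugt2b34.

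All 10 estimates were negative, with a median of -0.76, beside a median of 0.0049 over all genes tested. In 8 of 10 members both PA livers were below both WT livers, which was so for 21.9% of all genes tested, and in 0 members were both PA livers above both WT livers, which was so for 21.3% of all genes. An unadjusted p under 0.05 was reached by 5 members in edgeR, all lower, where 5.93% of all genes tested were lower at that level. The members' choice fixed part of this. Some markers of Kupffer cells, red blood cells, and B and T cells moved with genotype, as given above. So did some cholangiocyte markers, in both directions, 1 stellate or fibroblast marker, 1 endothelial marker and the mitochondrial share. Their part in these differences was not tested.

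Levels of different genes were compared in TPM, a unit that scales counts by transcript length and library. In WT livers Ugt2b5 (953 and 942 TPM) and Ugt2b36 (958 and 927 TPM) led and did not differ beyond their spread. Ugt2a3 (376 and 358 TPM) and Ugt3a2 (304 and 368 TPM) came next and overlapped, as did Ugt3a2 with Ugt2b34 (250.2 and 337 TPM) and Ugt2b34 with Ugt2b1 (249 and 263 TPM). Below them, without overlap, stood Ugt3a1 (124.6 and 125.5 TPM), Ugt2b35 (75.4 and 90.2 TPM), Ugt2b37 (21.1 and 24.9 TPM) and Ugt2b38 (3.63 and 2.40 TPM). Both singled-out genes were thus in the lower part of the order in WT livers, Ugt2b38 in last place.

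In PA livers Ugt2b36 (589 and 472 TPM) stood above Ugt2b5 (375.7 and 417 TPM) without overlap. Ugt2b34 (183.5 and 300.06 TPM) and Ugt2a3 (181 and 266 TPM) overlapped each other. Ugt2b1 (151 and 156 TPM) overlapped Ugt3a2 (125 and 166 TPM). Ugt2b35 (65.7 and 63.0 TPM) was now above Ugt3a1 (13.4 and 16.2 TPM), and Ugt2b37 (0.15 and 1.88 TPM) overlapped Ugt2b38 (0.00 and 0.17 TPM). In WT livers Ugt3a1 was above Ugt2b35 without overlap, and in PA livers it was below Ugt2b35 without overlap. Ugt3a2, which overlapped Ugt2a3 and Ugt2b34 in WT livers, was below both in PA livers.

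Summed over the 8 Ugt2 genes, the level was 1612 ± 92.4 TPM in PA livers and 2916 ± 40.8 TPM in WT livers (SD, n = 2 each), which puts PA at 55.3% of WT. For the Ugt3 pair the sum was 161 ± 30.9 TPM in PA livers and 461 ± 45.7 TPM in WT livers, or 34.8% of WT. TPM adds to a fixed total per library, and mitochondrial genes took more of the counts in PA livers. The part of that share in these sums was not tested. In CPM the members were less far below WT. All 10 together summed to 3681 and 3387 CPM in PA livers, against 5125 and 5773 CPM in WT livers. The PA mean in CPM was 47.7% of WT for Ugt2b5 and 70.8% for Ugt2b36. In TPM the means of Ugt2b5 were 396 in PA and 948 in WT livers, and those of Ugt2b36 were 531 and 942. The size of the difference in the sums thus depended on the unit.

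Within the Ugt2 sum, taken here from STAR counts per effective length, Ugt2b5 held 22.3 ± 0.424% in PA livers and 30.2 ± 0.966% in WT livers (SD, n = 2 each). Ugt2b34 held 15 ± 4.35% in PA livers and 10.1 ± 2.02% in WT livers, and Ugt2b35 held 4.07 ± 0.323% in PA livers and 2.90 ± 0.360% in WT livers. Ugt2b36 had nearly equal mean shares, 34.8 ± 7.34% in PA livers and 33.9 ± 1.20% in WT livers. Ugt2b37 and Ugt2b38 were minor in both genotypes, at 0.0677 ± 0.0774% and 0.00841 ± 0.00453% in PA livers and 0.825 ± 0.0885% and 0.0967 ± 0.0292% in WT livers. The strong differences of Ugt2b37 and Ugt2b38 therefore made up little of the difference in the sum, most of which lay, in TPM, in Ugt2b5 and Ugt2b36.

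**Figure D5:**
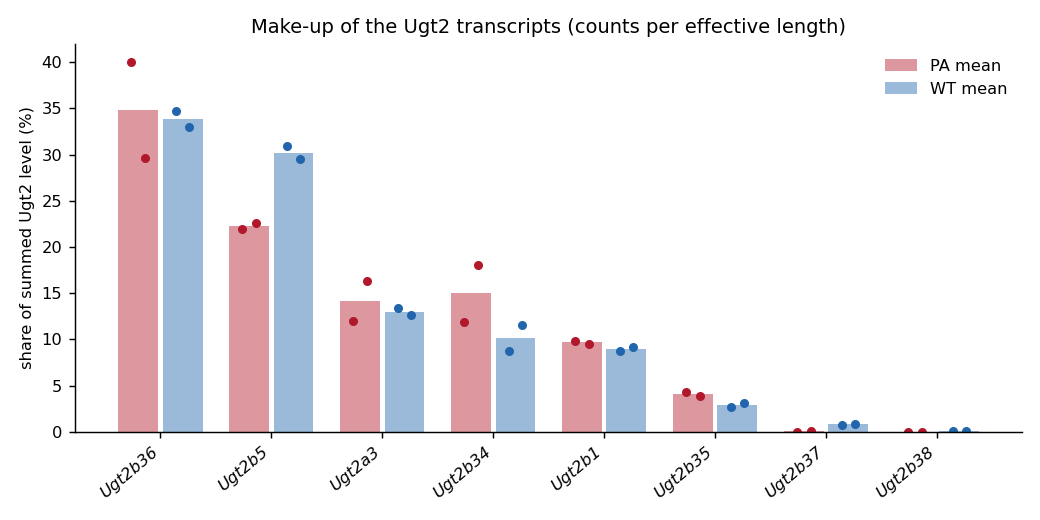
Share of each Ugt2 gene in the summed Ugt2 level (percent, STAR counts per effective length), with bars for the group means, PA left of WT, and points for the libraries. Ugt2b5 holds 22.3% on average in PA livers and 30.2% in WT livers, and Ugt2b36 holds 34.8% in PA livers and 33.9% in WT livers.

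The promoters of the members that differed most are shown because their letters can be set beside these values. RefSeq (GRCm38.p6) gave windows of 300 bases, 250 before the gene start and 50 after, for 9 members, and Ugt3a2 was not among them. The start is that of RefSeq, which for Ugt3a1 is position 9279829, 2941 bases inside the gene as GENCODE M21 draws it, and for Ugt2b37 16 bases inside. For Ugt2b5 it is upstream of the GENCODE start, at 87140340, and for Ugt2b38 the starts are the same. The windows are chr5:87424154-87424453, chr5:87254739-87255038 and chr5:87140291-87140590 on the minus strand and chr15:9279579-9279878 on the plus strand. Capitals mark, in the first 3, a run of 62 bases that they share letter for letter, and in Ugt3a1 its match to the motif below.
Ugt2b38: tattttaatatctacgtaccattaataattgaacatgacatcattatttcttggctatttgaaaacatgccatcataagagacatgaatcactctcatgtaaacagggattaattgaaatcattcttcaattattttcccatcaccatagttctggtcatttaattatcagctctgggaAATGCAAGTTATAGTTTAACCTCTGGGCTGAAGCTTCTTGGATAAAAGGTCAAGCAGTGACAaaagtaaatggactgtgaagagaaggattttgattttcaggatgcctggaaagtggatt
Ugt2b37: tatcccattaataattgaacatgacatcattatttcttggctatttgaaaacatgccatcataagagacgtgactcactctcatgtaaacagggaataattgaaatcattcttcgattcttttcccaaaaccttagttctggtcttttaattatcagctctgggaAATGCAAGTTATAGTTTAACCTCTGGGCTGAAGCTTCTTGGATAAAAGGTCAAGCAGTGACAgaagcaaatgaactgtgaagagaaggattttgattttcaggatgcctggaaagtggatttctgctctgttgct
Ugt2b5: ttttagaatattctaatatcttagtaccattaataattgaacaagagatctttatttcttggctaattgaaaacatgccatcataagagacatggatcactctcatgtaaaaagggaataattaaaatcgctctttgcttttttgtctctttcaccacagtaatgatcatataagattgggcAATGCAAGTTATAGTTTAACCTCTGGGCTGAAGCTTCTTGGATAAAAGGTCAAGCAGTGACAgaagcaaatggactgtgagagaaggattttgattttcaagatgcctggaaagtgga
Ugt3a1: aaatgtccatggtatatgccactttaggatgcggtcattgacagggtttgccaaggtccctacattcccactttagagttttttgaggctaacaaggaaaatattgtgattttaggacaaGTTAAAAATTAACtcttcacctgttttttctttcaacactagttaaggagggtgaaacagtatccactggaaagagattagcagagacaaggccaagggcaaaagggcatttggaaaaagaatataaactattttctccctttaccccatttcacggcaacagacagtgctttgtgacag

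The shared run starts at -71 from the RefSeq start in Ugt2b38, -85 in Ugt2b37 and -68 in Ugt2b5, and it was in 0 other member windows. Over their aligned parts the window of Ugt2b38 was 95.45% identical to that of Ugt2b37 and 90% identical to that of Ugt2b5. Ugt2b37 and Ugt2b5 were 89.13% identical. Ugt2b38 and Ugt2b37, with log2 fold changes of -4.13 and -4.29, thus had the most similar windows of the 3, and Ugt2b5, at -1.07, held the same 62 bases.

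Inside the shared run lies GTTATAGTTTAAC, which reads GTTA, any 4 bases and TTAAC, a near-palindrome. The motif was searched on both strands and was picked after the windows had been seen. It was in 8 of 9 member windows (all 7 Ugt2b genes and Ugt3a1, not Ugt2a3), against 62 of 32544 windows of all genes (0.1905%). Matches began between -130 in Ugt3a1 and -61 in Ugt2b5, counted from the RefSeq start. The members with a match ranged from Ugt2b34 at -0.09 to Ugt2b37 at -4.29. TTCNNNGAA, like a STAT site, was in 0 of 9 member windows and in 8.327% of all windows, and TATAAA was in 1 of 9 (Ugt3a1) and in 13.57% of all windows. A match is a string of letters and not a measured site.

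Of the genes around the Ugt2 run, 18 other protein-coding genes lay within 500 kb. Of these, 4 were tested, and where 0.812% of all genes tested were called, 1 was called. This was Sult1e1, which encodes estrogen sulfotransferase, another conjugating enzyme, 167.4 kb from the start of Ugt2b38. It had 189 and 79 counts in PA livers, against 5 and 3 counts in WT livers, and rose by a log2 fold change of 5.10 (SE 0.67, adjusted p 0.0263, edgeR). Its direction was opposite to that of Ugt2b38. Sult1e1 passed the filter on low counts through its PA libraries alone, and its WT counts were at or near the floor of 3. The PA livers differed from each other, at 7.42 and 2.66 CPM, so the size of the rise is uncertain. Around the Ugt3 pair, 5 of 7 neighbours were tested, and 0 were called by edgeR or DESeq2 or reached an unadjusted p under 0.05.

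Among 12 other Ugt genes listed, 6 were tested and 0 were called by edgeR, with 1 at an unadjusted p under 0.05 and 1 called lower by DESeq2. This was Ugt1a5, at 7.81 and 23.7 CPM in PA livers, against 57.2 and 85.5 CPM in WT livers, a log2 fold change of -2.18 (SE 0.49, adjusted p 0.131, edgeR). Ugt1a1, the bilirubin-conjugating enzyme, was at 136 and 222 CPM in PA livers and 138.5 and 199 CPM in WT livers, and its groups overlapped. The log2 fold change was 0.46 for Ugt1a6b, -0.01 for Ugt1a6a, -0.18 for Ugt1a9 and -0.85 for Ugt1a10. Ugt1a genes share their later exons, so their counts rest on first exons and are uncertain. Ugt2a1 and Ugt2a2 had 0 counts in each library, which allows up to 0.0978 to 0.118 CPM, the level of 3 counts.

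Genes that supply the sugar donors passed the test in neither direction. Of 17 such genes, 16 were tested and 0 called by edgeR or DESeq2, with 3 higher and 1 lower at an unadjusted p under 0.05 and a median log2 fold change of 0.16. Uap1l1, a relative of the enzyme that makes UDP-N-acetylglucosamine, was at 9.15 and 4.48 CPM in PA livers and 2.48 and 2.95 CPM in WT livers (log2 fold change 1.33, SE 0.38, adjusted p 0.220, edgeR). Ugdh, which makes UDP-glucuronic acid and is given for that role outside the naming rule, was at 195 and 166 CPM in PA livers and 87.7 and 135 CPM in WT livers (0.70, SE 0.27, adjusted p 0.374, edgeR).

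Of 8 genes for cleavage of glucuronides and breakdown of glucuronic acid, 7 were tested and 0 called by edgeR or DESeq2, with 1 at an unadjusted p under 0.05. Dcxr, which reduces xylulose, was at 74.9 and 71.4 CPM in PA livers and 47.6 and 50.1 CPM in WT livers (log2 fold change 0.58, adjusted p 0.284, edgeR). Rgn, a lactonase of sugar acids, was at 1917 and 1719 CPM in PA livers and 2709 and 2871 CPM in WT livers (-0.62, adjusted p 0.426, edgeR).

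Transporters that carry conjugates across the hepatocyte membrane held calls in both directions, 1 higher and 2 lower of 9 tested. Over all genes tested, 0.264% were called higher and 0.548% lower. This list, like the others, was drawn up with earlier results of these data known, so nothing is read from its share. Slco1a1, an uptake carrier of steroid conjugates and bile acids, was at 0.353 and 0.774 CPM in PA livers, against 350.1 and 218 CPM in WT livers, and fell by 8.94 on the log2 scale (SE 0.49, adjusted p 0.000535, edgeR). Slc22a7, an organic anion transporter, was at 2.20 and 2.02 CPM in PA livers and 23.3 and 10.8 CPM in WT livers, and fell by 3.02 (SE 0.39, adjusted p 0.0263, edgeR). Abcc4, an export pump for conjugates, was at 7.89 and 12.9 CPM in PA livers and 1.53 and 2.24 CPM in WT livers, and rose by 2.47 (SE 0.34, adjusted p 0.0313, edgeR). The median over the list was -0.08.

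Transcription factors known to control UGT genes gave 0 calls of 16 tested by edgeR or DESeq2, with 1 at an unadjusted p under 0.05 and a median of 0.07. Ahr, the receptor for aromatic ligands, was at 38.9 and 41.0 CPM in PA livers and 25.1 and 28.0 CPM in WT livers (log2 fold change 0.59, adjusted p 0.273, edgeR).

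Among 12 regulators of sex-biased liver expression, 0 were called by edgeR and 2 were called lower by DESeq2, where 1.62% of all genes were. An unadjusted p under 0.05 in edgeR was reached by 5, all lower, where 5.93% of all genes tested were lower at that level. The median was -0.87. Socs2, a feedback inhibitor of growth hormone signalling, was at 9.11 and 16.5 CPM in PA livers and 94.5 and 39.9 CPM in WT livers (log2 fold change -2.39, SE 0.46, adjusted p 0.0823, edgeR).

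The genes with the most similar pattern were found by the distance between log2(CPM + 0.5) values over the 4 libraries after each gene was centred on its mean, among 11416 protein-coding genes. Nearest to Ugt2b38 were Mup7 (distance 0.252), which encodes a major urinary protein, and the beta-globin genes Hbb-bt (0.339) and Hbb-bs (0.352), which are red blood cell markers. Nearest to Ugt3a1 were Sult2a8 (0.183), a sulfotransferase, Mup7 (0.263) and Carmil1 (0.264), an actin regulator. Sult2a8 was at 133 and 128 CPM in PA livers and 805 and 826 CPM in WT livers. Ugt3a1 ranked 7 for Ugt2b38, closer than any other member, and Ugt2b38 ranked 5 for Ugt3a1. The added 0.5 CPM shrinks differences of low genes, and fitted log2 fold changes were less alike than the distances, at -6.89 for Mup7 and -2.83 for Hbb-bs beside -4.13 for Ugt2b38.

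Ugt2 and Ugt3 genes are also used in kidney and intestine. Of the 8 markers of these tissues, Umod and Kap had 0 counts in each library, and the list summed to 52.8 and 39.9 CPM in PA livers and 104.8 and 100.3 CPM in WT livers. Most of that sum was Fabp2, which liver also expresses, at 44.4 and 37.5 CPM in PA livers and 101 and 97.0 CPM in WT livers, and called lower (adjusted p 0.0487, edgeR). The part of these markers in the values of the Ugt genes was not tested.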

How the data were processed

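The authors deposited, per library, a gene table of raw read counts from STAR and a table of RSEM expected counts and TPM, per the file headers. Per the submitters' processing notes the tools were STAR 2.7.6a and RSEM 1.3.3 on GRCm38, with an annotation release not given in the sources used here. Counts from STAR leave out reads with several best places, while expected counts deposited by the authors share them out. The opposite-strand column, which held 96.96 to 97.08% of stranded counts, was the main count. Summary lines that name no gene (28.1 to 34.3% of reads) were left out. Symbols and positions came from GENCODE M21 (55227 of 55487 identifiers matched), and promoters from RefSeq.

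Groups came from sample titles. PA was compared with WT by the quasi-likelihood test of edgeR 4.0.16 (R 4.3.3; TMM, filterByExpr, prior count 0.125, Benjamini-Hochberg threshold 0.05), two-sided, and CPM uses TMM-scaled library sizes. Expected counts were rounded for the fit. The SE is the log2 fold change over the square root of F. The steps were tested on simulated data. The chi-square statistic per degree of freedom was 135 between PA libraries and 46.3 between WT libraries (over genes whose pair held 20 counts or more), so neither pair is 1 library deposited more than once. Alternatives were DESeq2 1.42.0, other scaling, no filter, expected counts, unstranded counts, a replicate block and each library left out. Floors cover counting error only.

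The members, the gene lists and the naming rule were chosen with earlier results of these data known. The rule names, from each pathway list, the called genes or, with fewer than 2, the 2 with the smallest p, the called neighbours, and the 3 genes most like Ugt2b38 and Ugt3a1. Some genes that the rule names are not reported here.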

Additional observations from a re-analysis of the deposited data

How the results depend on the processing

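Ugt2b38 and Ugt3a1 were called lower in the 11 alternatives run, Ugt2b37 in 10 (not with expected counts), Ugt2b5 in 4 (DESeq2, no filter, and with either PA library left out) and Ugt3a2 in 2 (DESeq2 and no filter). Members called lower, 2 in the reported fit, numbered 5 with DESeq2, 5 without a filter on low counts, and 3 to 4 with 1 library left out. Over all genes, calls lower in PA numbered 79, and 245 with DESeq2, 488 without the filter, 192 with the replicate block and 105 to 261 with 1 library left out. Calls higher in PA numbered 38, and 185, 414, 126 and 50 to 239 under the same alternatives. The cause was not tested. The sign turned for Ugt2b34 (-0.33 to 0.19) and Ugt2b35 (-0.33 to 0.059) with 1 library left out, positive without PA replicate 1 or WT replicate 2 for Ugt2b34 and without PA replicate 2 or WT replicate 2 for Ugt2b35. Leaving out a library leaves 1 mouse in its group, which is assumed to vary like the other group. With the replicate block 3 members were called (Ugt2b37, Ugt2b38 and Ugt3a1). The labels do not say that equal numbers pair animals, and the deviations of same-numbered libraries from their group means correlated at -0.0907. At this depth Ugt2b38 in PA livers rests on 4 and 9 counts, near the floor of 3.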

Other observations

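The PA livers differed from each other for some of the genes described, in a comparison chosen after the values were seen. PA replicate 1 had 0.393 CPM of Ugt2b37 and 0.471 CPM of Cux2, a liver factor known for higher expression in female mice. PA replicate 2 had 3.20 CPM of Ugt2b37 and 6.09 CPM of Cux2. Cux2 was at 22.4 and 17.1 CPM in WT livers. Ugt3a1, at 16.8 and 17.0 CPM in PA livers, did not show this difference. PA replicate 1 also had the higher mitochondrial share, 13.6% against 8.98% in PA replicate 2, and the higher share of multimapping reads, 13.5% against 9.19%. What part these shares had was not tested.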
